A study of Mus musculus with 9 samples.

Results

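Expression of 10 genes of common gamma chain cytokine signalling was examined in T15 cells, a Smarcb1-negative mouse cell line of peripheral T-cell lymphoma. The genes were chosen by name, as parts of this pathway and by no threshold on their values, from 35288 listed Ensembl genes. Earlier results of these data were known when the choice was made. The genes are the cytokine gene Il2, the receptor genes Il2ra, Il2rb, Il2rg, Il7r and Il21r, the kinase genes Jak1 and Jak3, and the transcription factor genes Stat5a and Stat5b. Of these 10 genes, 9 passed the filter on low counts and were among the 13697 genes tested, whereas Il2 did not. Bulk RNA-seq was available for 3 control libraries, 3 libraries of cells treated with 1 µM SAHA (vorinostat, an inhibitor of histone deacetylases) for 72 h, and 3 libraries of Smarcb1-RE cells, in which a lentiviral Smarcb1 cDNA in the pInd20 vector was induced with doxycycline at 0.5 µg/µl for 72 h after G418 selection. All groups derived from this single cell line. The study describes the control cells as untreated, whereas the sample labels mention a vehicle for SAHA and a Smarcb1-free plasmid for re-expression without saying which of these the 3 control libraries received. Transduction, selection and doxycycline therefore cannot be told apart from Smarcb1 where Smarcb1-RE cells are set against control cells. The study describes the 3 libraries of a group as biological replicates, and mentions several stable Smarcb1-RE clones, but the labels do not say which clones or cultures the libraries came from, so p-values cover the spread between these libraries only. Both comparisons with control used the same 3 control libraries.

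The receptors for IL-2, IL-4, IL-7, IL-9, IL-15 and IL-21 share the common gamma chain, which is encoded by Il2rg. Each pairs it with a partner chain, which is Il2rb for both IL-2 and IL-15. The IL-2 receptor adds the signalling chain Il2rb and, for high affinity, the chain Il2ra, also known as CD25. JAK1 binds the partner chains and JAK3 the gamma chain, and the kinases phosphorylate STAT5A and STAT5B, which enter the nucleus and drive survival and growth genes in T cells, and activating mutations of this pathway are known from T-cell lymphomas.

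The stretches of 250 bases before the transcription start of 3 receptor genes are shown because their transcripts responded in different ways (a higher level in both treated groups for Il2ra and Il2rg, and opposite directions for Il7r). The sequences are those of RefSeq (GRCm38.p6), which held an entry for 9 of the 10 genes (11 entries), all except Il2rb, and run 5′ to 3′ on the strand of the gene. Capitals mark matches, on either strand, to the STAT motif TTCNNNGAA, the RUNX motif TGTGGT, the AP-1 motif TGANTCA or the ETS motif CCGGAA. The Il2ra stretch lay at chr2:11642542-11642791 on the plus strand. The Il2rg stretch lay at chrX:101268256-101268505 and the Il7r stretch at chr15:9529877-9530126, both on the minus strand. The starts are those of RefSeq. In GENCODE M21 the Il7r gene begins upstream of its stretch, at 9530176, so that stretch lies inside the gene.
Il2ra: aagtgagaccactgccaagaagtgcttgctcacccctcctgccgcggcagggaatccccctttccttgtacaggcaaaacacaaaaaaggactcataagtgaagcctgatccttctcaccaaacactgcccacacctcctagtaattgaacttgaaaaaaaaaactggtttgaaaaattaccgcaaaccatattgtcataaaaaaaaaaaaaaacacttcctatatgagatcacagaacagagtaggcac
Il2rg: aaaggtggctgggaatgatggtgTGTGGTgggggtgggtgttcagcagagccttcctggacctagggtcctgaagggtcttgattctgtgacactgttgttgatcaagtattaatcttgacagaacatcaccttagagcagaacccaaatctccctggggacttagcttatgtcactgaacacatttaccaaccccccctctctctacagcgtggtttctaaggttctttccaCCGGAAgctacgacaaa
Il7r: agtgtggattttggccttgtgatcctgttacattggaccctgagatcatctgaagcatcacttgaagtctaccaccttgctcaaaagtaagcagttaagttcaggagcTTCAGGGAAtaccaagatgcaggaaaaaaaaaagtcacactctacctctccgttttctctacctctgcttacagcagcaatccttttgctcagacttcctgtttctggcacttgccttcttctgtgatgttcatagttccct

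The Il7r stretch held a match to the STAT motif, TTCAGGGAA, from base -142 to base -134 before the RefSeq start (chr15:9530010-9530018). By GENCODE M21 this match lies inside the gene. In Il2rg, a RUNX match lay from base -227 to -222 and an ETS match from base -17 to -12, and the Il2ra stretch held none of these letters. Among the other genes, Il21r held a RUNX match from base -33 to -28 and Stat5b an ETS match from base -133 to -128. The Stat5b match (chr11:100850709-100850714) also lies inside the gene by GENCODE M21, where Stat5b begins at 100850724. The 5 matches did not overlap each other. Of 32851 promoter stretches of the same length, 7.02% held the STAT motif, 14% the RUNX motif, 6.75% the AP-1 motif and 12% the ETS motif. A match describes the letters only, and no binding was measured.

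The libraries held between 20900424 and 24941408 estimated counts. Smarcb1 counts were 2, 5 and 8 in control, 7, 13 and 3 with SAHA and 151, 147 and 142 in Smarcb1-RE. It was higher in Smarcb1-RE than in control by 4.89 ± 0.36 (log2 fold change ± SE, edgeR adjusted p = 6.19e-08). Control replicate 1 stood apart from the other control libraries, with a chi-square per gene of 12.9 and 14.4 in its pairs against 2.07 to 4.60 in all other replicate pairs. Of 10 T-cell markers, Cd3e, Cd3d, Cd3g, Cd247, Lck, Zap70 and Lat carried nearly all counts, while Cd2, Cd5 and Thy1 had at most 6 counts in any library. Their summed level was 2460 to 2673 CPM in control, 2237 to 2281 in SAHA and 2394 to 2419 in Smarcb1-RE. CPM is the count of a gene relative to its library's total after that total is adjusted by the TMM factor. The 5 B-cell markers summed to 0.936 to 1.14 CPM in control, 1.24 to 1.86 in SAHA and 7.25 to 7.97 in Smarcb1-RE, and the 5 myeloid markers to at most 0.68 CPM. The 4 NK-cell markers summed to 424 to 467 CPM in control, 447 to 471 in SAHA and 549 to 552 in Smarcb1-RE, nearly all of it Nkg7. The 5 fibroblast markers summed to 6.34 to 8.88, 6.76 to 6.98 and 66.4 to 68.6 CPM. Most of this was Pdgfra in each group (means of 7.57, 5.90 and 67.15 CPM). The part of all these markers in the results was not tested. In these bulk samples a change in every cell cannot be told apart from a change in the share of cells that carry a transcript.

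The ligand was not detected. Il2 had 0 counts in each of the 9 libraries, which allows a level of up to 0.12 to 0.144 CPM per library (3 counts, counting error only).

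Within each group, the levels of the other 9 genes were compared as CPM per kb of merged exons. In control, Il2rb stood first at 149 ± 9.12 (SD, n = 3) CPM per kb, followed by Stat5a at 112 ± 2.53, Il21r at 75.3 ± 1.3, Il2rg at 66.8 ± 0.775, Stat5b at 56.2 ± 3.39, Jak3 at 35.8 ± 1.67, Jak1 at 25.1 ± 1.09, Il7r at 7.80 ± 0.0514 and Il2ra at 0.105 ± 0.0168 CPM per kb. In control, the level per kb of Il2rb exceeded that of 97.5% of the tested genes, and that of Il2ra exceeded 6.56%. In SAHA, Il2rg took the second place at 122 ± 0.782 CPM per kb, ahead of Stat5a at 81.3 ± 3.60. In Smarcb1-RE, Stat5a stood in the fifth place at 55.5 ± 1.77 CPM per kb, below Stat5b at 63.3 ± 0.478, and Il7r stood at 1.52 ± 0.0933 CPM per kb. Neighbours in the order did not overlap between libraries in any group. With the longest transcript as length, Stat5a stood ahead of Il2rb in control, at 202 against 152 CPM per kb, and ahead of Il21r and Stat5b in Smarcb1-RE, at 99.9 against 89.8 and 67.3 CPM per kb, so these places depend on the length used.

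**Figure D1:**
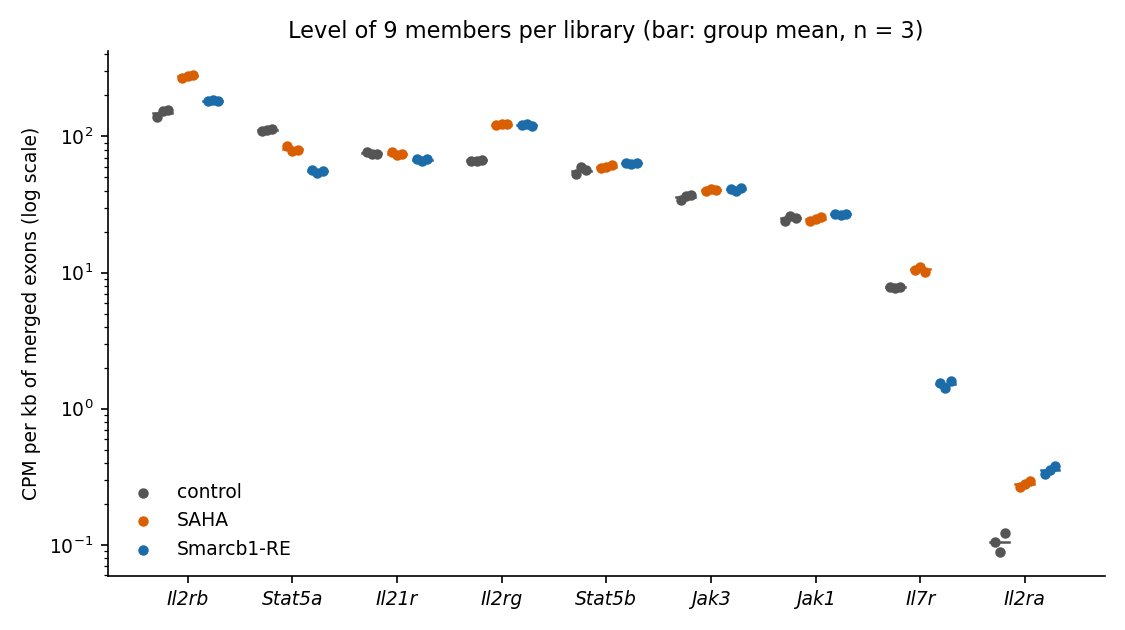
Level of the 9 detected genes in every library, as CPM per kb of merged exons on a log axis, with points for libraries and bars for group means (n = 3). Il2, at 0 counts in all libraries, is not drawn. Il7r lies lower in Smarcb1-RE (1.52 CPM per kb) than in control (7.80), and Il2ra is the lowest gene in every group.

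In the comparison of SAHA with control, 5 of the 9 tested genes were higher (Il2ra, Il2rb, Il2rg, Il7r and Jak3), 1 was lower (Stat5a) and 3 did not pass the test (adjusted p under 0.05, edgeR's quasi-likelihood test with Benjamini-Hochberg adjustment over all genes). Among all tested genes, 32.6% were called higher and 34.3% lower. Comparing Smarcb1-RE with control, 5 were higher (Il2ra, Il2rb, Il2rg, Jak3 and Stat5b), 3 were lower (Il7r, Il21r and Stat5a) and 1 did not pass, against 39.2% of all genes called higher and 38.6% lower. Between Smarcb1-RE and SAHA, 1 was higher (Jak1), 4 were lower (Il2rb, Il7r, Il21r and Stat5a) and 4 did not pass, against 37.7% and 36.8% of all genes. The median log2 fold change of the 9 genes was 0.17, 0.17 and -0.01 in the 3 comparisons, and that of all genes 0, 0.01 and 0.02. Scaling by library totals in place of TMM raised the median of all genes to 0.17 for Smarcb1-RE against control and 0.18 for Smarcb1-RE against SAHA, and the share of calls that were higher from 50.4% to 61% and from 50.6% to 62.1%, so values near these shifts depend on the scaling.

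**Figure D2:**
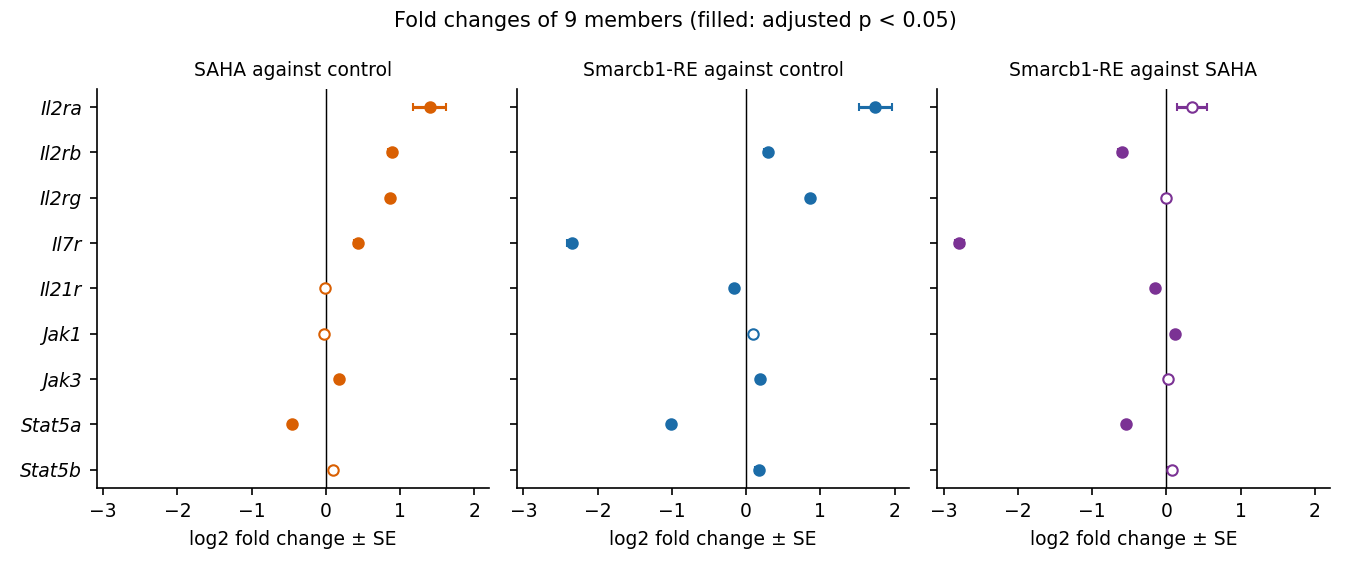
Log2 fold changes of the 9 tested genes with standard errors in the 3 comparisons. Filled points passed an adjusted p under 0.05, open points did not, and error bars smaller than the point are hidden. Il7r lies to the right of 0 in SAHA (0.43) and far to the left in Smarcb1-RE (-2.35), and Stat5a lies to the left in all panels.

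Il2ra, the alpha chain that gives the IL-2 receptor its high affinity, was scarce, and higher in both treated groups. Its counts were 14, 12 and 17 in control, 35, 36 and 39 with SAHA and 44, 46 and 50 in Smarcb1-RE, corresponding to 0.601 ± 0.096, 1.60 ± 0.0819 and 2.02 ± 0.14 CPM. No treated library overlapped a control library. The log2 fold change against control was 1.40 ± 0.22 in SAHA (edgeR adjusted p = 0.000115) and 1.74 ± 0.22 in Smarcb1-RE (edgeR adjusted p = 9.58e-06). The treated groups did not pass the test against each other (0.34 ± 0.20, edgeR adjusted p = 0.131), although with library totals they did (0.50, edgeR adjusted p = 0.0336). Il2ra (ENSMUSG00000026770) lies on chromosome 2 from 11642807 to 11693193 on the plus strand (GRCm38).

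Il2rb, the signalling chain shared by the IL-2 and IL-15 receptors, was the most abundant receptor gene and responded more to SAHA. It measured 594, 655 and 668 CPM in control, 1144, 1186 and 1220 with SAHA and 776, 788 and 782 in Smarcb1-RE. The 3 groups did not overlap, with SAHA highest and control lowest. Against control, Il2rb rose by 0.89 ± 0.05 (log2 fold change ± SE) in SAHA (edgeR adjusted p = 1.04e-08), which is 1.85-fold, and by 0.29 ± 0.05 in Smarcb1-RE (edgeR adjusted p = 9.04e-05). In Smarcb1-RE it was 1.51-fold lower than in SAHA (log2 fold change -0.60 ± 0.05, edgeR adjusted p = 1.22e-07). Its gene (ENSMUSG00000068227) lies on chromosome 15 from 78479256 to 78495271 on the minus strand.

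Il2rg, the common gamma chain, rose by a similar amount in both groups. Control libraries held 158.5, 158.2 and 161.5 CPM, SAHA libraries 289.2, 292.3 and 292.6 CPM and Smarcb1-RE libraries 288.5, 292.9 and 286.2 CPM. All 6 treated libraries lay above the control libraries, and the treated groups overlapped each other. Log2 fold changes were 0.87 ± 0.03 in SAHA (edgeR adjusted p = 1.69e-09) and 0.86 ± 0.03 in Smarcb1-RE (edgeR adjusted p = 2.49e-10). Smarcb1-RE against SAHA gave -0.01 ± 0.03 (edgeR adjusted p = 0.783), and 0.15 with library totals (edgeR adjusted p = 0.002), so the direction between the treated groups depends on the scaling. The gene (ENSMUSG00000031304) lies on chromosome X from 101264378 to 101268255 on the minus strand and shares 28.7% of its 31-base stretches with the overlapping gene model Gm20489, which had 0 counts in every library.

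Il7r, the alpha chain of the IL-7 receptor, was the member whose treated groups went opposite ways. It measured 36.4, 36.1 and 36.6 CPM in control, 48.7, 51.5 and 47.3 with SAHA and 7.17, 6.64 and 7.5 in Smarcb1-RE. The 3 groups lay far apart, with SAHA above and Smarcb1-RE below control. Il7r rose by 0.43 ± 0.05 on the log2 scale in SAHA (edgeR adjusted p = 5.94e-06) and was 5.12-fold lower than control in Smarcb1-RE (log2 fold change -2.35 ± 0.06, edgeR adjusted p = 1.01e-11). The direct comparison of Smarcb1-RE with SAHA gave -2.79 ± 0.06 (edgeR adjusted p = 1.99e-12), which is 6.91-fold lower. Without control replicate 1 these log2 fold changes were 0.43, -2.36 and -2.79. The gene (ENSMUSG00000003882) lies on chromosome 15 from 9505788 to 9530176 on the minus strand.

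Il21r, the specific chain of the IL-21 receptor, moved least among the receptor genes. Its levels were 255.2, 246.9 and 248.9 CPM in control, 257, 242.9 and 244.8 with SAHA and 228, 220.1 and 225.2 in Smarcb1-RE. Control and SAHA overlapped, and the Smarcb1-RE libraries lay below both. Il21r gave -0.01 ± 0.04 in SAHA (edgeR adjusted p = 0.793) and -0.16 ± 0.04 in Smarcb1-RE (edgeR adjusted p = 0.00206), but with library totals the second value was 0 (edgeR adjusted p = 0.977), so its decrease depends on the scaling. Smarcb1-RE was likewise lower than SAHA (-0.15 ± 0.04, edgeR adjusted p = 0.0038), and with library totals this was 0.01.

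Because the receptor works as a complex of chains, ratios of the chains within a library, which no scaling affects, were also formed from counts per kb. Il2rb over Il2rg was 2.23 ± 0.124 (SD, n = 3) in control, 2.26 ± 0.0595 in SAHA and 1.5 ± 0.0131 in Smarcb1-RE, where all 3 libraries lay below those of the other groups. Il2rb over Il2ra was 1441 ± 243, 988 ± 19.2 and 516 ± 33.8. Il2rg over Il7r was 8.56 ± 0.0669 in control, 11.6 ± 0.51 in SAHA and 79.8 ± 5.90 in Smarcb1-RE. Transcripts of the gamma chain thus outnumbered those of the IL-7 receptor chain per length in each group, and by the most in Smarcb1-RE.

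Both kinase genes differed little between groups. Jak1, the kinase bound to the partner chains, measured 172.5, 187.9 and 182.9 CPM in control, 173.7, 178.2 and 183.9 with SAHA and 194.4, 190.8 and 193.8 in Smarcb1-RE. The Smarcb1-RE libraries were the highest, and control and SAHA overlapped. Neither comparison with control passed the test (-0.02 ± 0.04 in SAHA, edgeR adjusted p = 0.692, and 0.09 ± 0.04 in Smarcb1-RE, edgeR adjusted p = 0.0591), whereas Smarcb1-RE against SAHA did (0.11 ± 0.04, edgeR adjusted p = 0.0273). That call was lost without SAHA replicate 1 (0.08, edgeR adjusted p = 0.151), SAHA replicate 2, control replicate 3 or any Smarcb1-RE library. With library totals, Jak1 was higher in Smarcb1-RE than in control by 0.25 (edgeR adjusted p = 0.000166). Jak1 (ENSMUSG00000028530) lies on chromosome 4 from 101152367 to 101265282, and the 674 genes of that chromosome had a median log2 fold change of 0.29 in Smarcb1-RE against control, compared with -0.10 for 9661 genes of the other autosomes (protein-coding, average log2 CPM of at least 1). In Smarcb1-RE against SAHA, where Jak1 passed, these medians were 0.38 and -0.04. The part of this shift in the Jak1 values was not tested.

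Jak3, the kinase bound to the gamma chain, measured 181.4, 194.7 and 198.4 CPM in control, 211.1, 219 and 217.2 with SAHA and 219.2, 212 and 223.1 in Smarcb1-RE. All treated libraries lay above control, and the treated groups overlapped. Jak3 rose by 0.17 ± 0.04 in SAHA (edgeR adjusted p = 0.00321) and by 0.19 ± 0.04 in Smarcb1-RE (edgeR adjusted p = 0.00138). Without control replicate 1, the lowest library, the values were 0.13 and 0.14 and still passed. Smarcb1-RE against SAHA gave 0.02 ± 0.04 (edgeR adjusted p = 0.755), but 0.17 with library totals (edgeR adjusted p = 0.00369). With library totals the value for Smarcb1-RE against control was 0.35, so the size of these differences depends on the scaling. Jak3 (ENSMUSG00000031805; chromosome 8, 71676296 to 71690575) overlaps Insl3 on the same strand and shares 6.92% of its 31-base stretches with it, and Insl3 was itself at 12.7, 14.1 and 18.2 CPM in the 3 groups.

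The STAT5 genes gave the clearest contrast between close relatives. Stat5a measured 778, 802 and 814 CPM in control, 609, 561 and 570 with SAHA and 407, 382 and 397 in Smarcb1-RE. The groups did not overlap and descended from control over SAHA to Smarcb1-RE. Stat5a fell by 0.46 on the log2 scale in SAHA (SE 0.04, edgeR adjusted p = 1.17e-06) and was 2.02-fold lower in Smarcb1-RE (log2 fold change -1.01 ± 0.04, edgeR adjusted p = 4.82e-10). Between the treated groups the log2 fold change was -0.55 ± 0.04 (edgeR adjusted p = 1.28e-07). With library totals the values against control were -0.46 and -0.85.

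Stat5b measured 291.5, 328.9 and 312.9 CPM in control, 322.2, 332.6 and 343.7 with SAHA and 351.2, 347.7 and 352.8 in Smarcb1-RE. Control and SAHA overlapped, and Smarcb1-RE was highest. Stat5b did not pass in SAHA (0.10 ± 0.05, edgeR adjusted p = 0.0818) and rose by 0.17 ± 0.05 in Smarcb1-RE (edgeR adjusted p = 0.00441). Smarcb1-RE against SAHA did not pass (0.07 ± 0.05, edgeR adjusted p = 0.162). With library totals Stat5b was higher in Smarcb1-RE than in control by 0.33, and than in SAHA by 0.23 (edgeR adjusted p = 0.000716). Counted per kb, the ratio of Stat5a to Stat5b was 2.07, 1.89 and 2.02 in control, 1.47, 1.31 and 1.29 with SAHA and 0.90, 0.854 and 0.874 in Smarcb1-RE. The ratio was highest in control and lowest in Smarcb1-RE, with no overlap between groups. Which gene was more abundant in Smarcb1-RE depends on the length used, since with the longest transcript Stat5a stayed above Stat5b there (99.9 against 67.3 CPM per kb). Of the 31-base stretches of Stat5a, 11.5% also occur in Stat5b, and 15.1% of those of Stat5b in Stat5a. The division of reads from such stretches between the genes is uncertain, by an amount that was not estimated. Stat5a (ENSMUSG00000004043; 100859351 to 100885169, plus strand) and Stat5b (ENSMUSG00000020919; 100780731 to 100850724, minus strand) lie next to each other on chromosome 11.

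**Figure D3:**
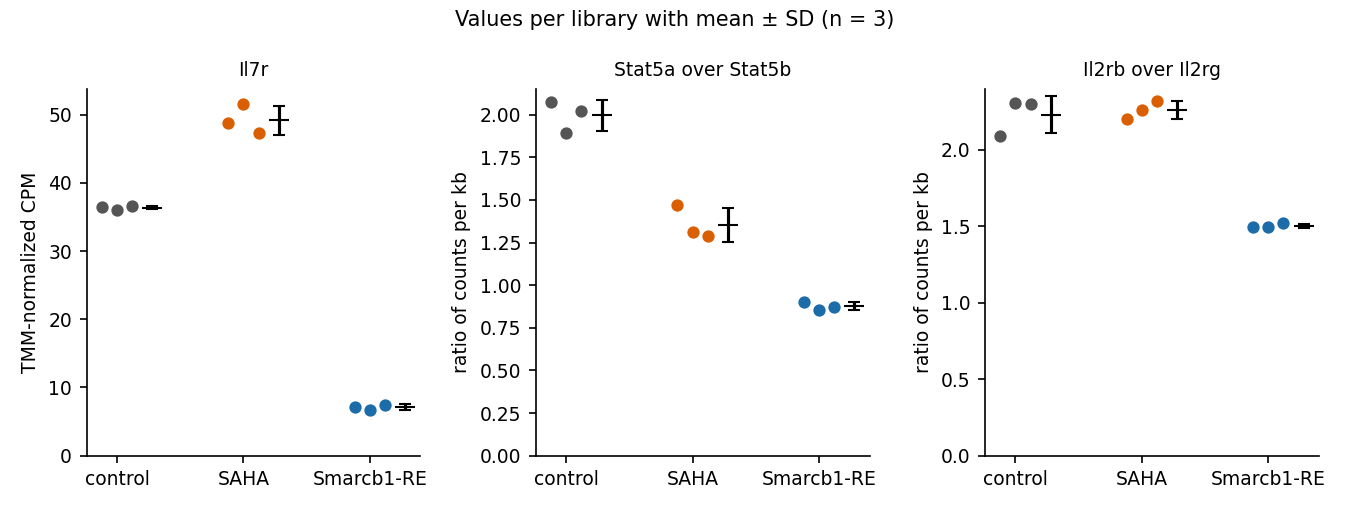
Il7r in TMM-normalized CPM (left), the ratio of Stat5a to Stat5b (middle) and the ratio of Il2rb to Il2rg (right), both ratios from counts per kb, with points for libraries and mean ± SD (n = 3) beside them. The 3 groups are separate for Il7r and for Stat5a over Stat5b, while Il2rb over Il2rg is lower in Smarcb1-RE only (1.5 against 2.23 and 2.26).

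Other genes of the pathway were examined in 6 lists of 71 genes, of which 64 were tested. Against control, 34 were higher and 18 lower in SAHA (32.6% and 34.3% of all genes). Smarcb1-RE had 28 higher and 23 lower (39.2% and 38.6% of all genes), or 33 and 17 with library totals. The shares of all genes given here apply to each list below, and the lists carry no set test. Among 10 other ligands and receptors, Il9 and Il21 had 0 counts and Tslp at most 1 count. Of the 7 tested, 2 were higher and 2 lower in SAHA (median log2 fold change -0.32), and 3 were higher and 1 lower in Smarcb1-RE (median 0.07). The receptor gene Il9r was higher in Smarcb1-RE by 2.66 ± 0.22 (edgeR adjusted p = 2.1e-07), from 0.785 ± 0.148 CPM in control to 4.98 ± 0.157. Il15ra, the alpha chain for IL-15, fell from 16.8 ± 1.82 CPM to 9.74 ± 0.846 in SAHA and stood at 19.4 ± 0.379 in Smarcb1-RE. Il4ra, the IL-4 receptor chain, was higher in SAHA (log2 fold change 0.23 ± 0.06) and lower in Smarcb1-RE (-0.77 ± 0.07), and Crlf2, the TSLP receptor chain, was lower in SAHA (-0.38 ± 0.06). Il15, a ligand of Il2rb and Il2rg whose low level kept it outside the rule for named genes and which was chosen after its values were seen, rose from a control level of 0.238 ± 0.022 CPM to 1.05 ± 0.117 with SAHA and to 2.56 ± 0.121 in the Smarcb1-RE libraries (log2 fold change 2.11 ± 0.27, edgeR adjusted p = 1.71e-05, and 3.4 ± 0.25, edgeR adjusted p = 5.15e-08).

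All 7 other JAK and STAT genes were higher in SAHA (median 0.29), against 32.6% of all genes. In Smarcb1-RE 4 were higher and 2 lower (median 0.21), against 39.2% and 38.6% of all genes. With library totals the counts in Smarcb1-RE became 5 and 1. Stat2, a transcription factor of interferon signalling, measured 53.7 ± 2.34 CPM in control, 169 ± 20.4 in SAHA and 85.6 ± 3.48 in Smarcb1-RE, and rose in both (1.65 ± 0.08, edgeR adjusted p = 4.5e-09, and 0.67 ± 0.08, edgeR adjusted p = 4.64e-06). The kinase gene Jak2 rose in SAHA from 99.1 ± 3.68 to 190 ± 8.60 CPM (0.94 ± 0.04). Tyk2 rose in Smarcb1-RE by 0.53 ± 0.05 and in SAHA by 0.29 ± 0.05. Stat3 was higher in SAHA (0.36 ± 0.05).

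Of 21 negative regulators, 7 were higher and 7 lower in SAHA (median 0.05), and 9 were higher and 7 lower in Smarcb1-RE (median 0.10), or 11 and 4 with library totals. Socs3, a feedback inhibitor of JAK kinases, rose from 8.24 ± 0.0891 to 28.5 ± 2.08 CPM in SAHA (1.79 ± 0.07, edgeR adjusted p = 2.32e-09) and did not pass in Smarcb1-RE (7.28 ± 0.394 CPM). Socs1, another such inhibitor, fell from 14.9 ± 0.745 CPM to 10.9 ± 0.971 in SAHA and 6.34 ± 0.50 in Smarcb1-RE (log2 fold change -0.46 ± 0.09 and -1.24 ± 0.09). Socs5 rose in SAHA by 0.82 ± 0.12 and in Smarcb1-RE by 0.62 ± 0.12. The phosphatase gene Ptpn6 (SHP-1) was lower in both (-0.80 ± 0.05 and -0.69 ± 0.05). In Smarcb1-RE the phosphatase gene Ptprc (CD45) rose from 641 ± 7.26 to 1641 ± 22.2 CPM (1.36 ± 0.03), and the ubiquitin ligase gene Cbl from 120 ± 13.3 to 227 ± 2.30 CPM (0.92 ± 0.06). Ptprc and Cbl also rose in SAHA, but less (0.65 ± 0.03 and 0.25 ± 0.06).

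Of 17 genes known to be induced by IL-2 or STAT5, 14 were tested, while Osm, Gzmb and Foxp3 had at most 3 counts in any library. In SAHA 8 were higher and 3 lower (median 0.30), whereas in Smarcb1-RE 3 were higher and 8 lower (median -0.30, or 3 and 7 and a median of -0.14 with library totals). Directly compared, Smarcb1-RE had 1 higher and 11 lower than SAHA (median -0.71). Over all genes 37.7% were higher and 36.8% lower in that comparison (median 0.02). The list shares Cish, Socs1, Socs2 and Socs3 with the negative regulators. Pim1, a kinase that promotes survival, rose in both groups, from 18.2 ± 1.61 CPM to 41.9 ± 2.88 in SAHA and 40.6 ± 0.645 in Smarcb1-RE (1.2 ± 0.07 and 1.16 ± 0.07). Ccnd2, encoding cyclin D2, fell in Smarcb1-RE from 1064 ± 102.7 to 574 ± 2.30 CPM (-0.89 ± 0.06, edgeR adjusted p = 2.6e-08) and did not pass in SAHA.

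Of 5 genes known to be repressed by IL-2 or STAT5, 3 were higher and 2 lower in each comparison with control (medians 0.34 and 0.74). Without control replicate 1, 1 was higher and 2 lower in SAHA. With library totals or median-ratio factors, 3 were higher and 1 lower in SAHA. Tcf7, a transcription factor of naive and memory T cells, fell in Smarcb1-RE from 282 ± 10.6 to 47.2 ± 2.13 CPM (-2.58 ± 0.05, edgeR adjusted p = 8.9e-13). Bcl6, a transcriptional repressor, rose there from 5.01 ± 0.473 to 11.3 ± 0.573 CPM (1.17 ± 0.12), and Il6st, the shared chain of the IL-6 receptor family, rose in SAHA (0.69 ± 0.05) and in Smarcb1-RE (0.74 ± 0.05). Il6ra was lower in SAHA (-0.57 ± 0.06) and in Smarcb1-RE (-0.33 ± 0.06). With SAHA, Bcl6 (0.34 ± 0.13) and Tcf7 (-0.11 ± 0.04) changed less than in Smarcb1-RE, and their libraries overlapped control. Among 14 tested adaptors and genes of the PI3K branch, 8 were higher and 5 lower in SAHA (median 0.20) and 7 were higher and 4 lower in Smarcb1-RE (median 0.21). The docking protein gene Gab2 rose in SAHA (1.61 ± 0.19) and in Smarcb1-RE (1.65 ± 0.19) from 1.12 ± 0.175 CPM in control. Sos2 and the PI3K subunit gene Pik3cd rose in SAHA (0.80 ± 0.06 and 0.79 ± 0.04) and in Smarcb1-RE (0.29 ± 0.06 and 0.65 ± 0.04). The kinase gene Akt1 fell in Smarcb1-RE from 291 ± 10.0 to 143 ± 2.29 CPM (-1.02 ± 0.04) and by less in SAHA (-0.33 ± 0.04).

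**Figure D4:**
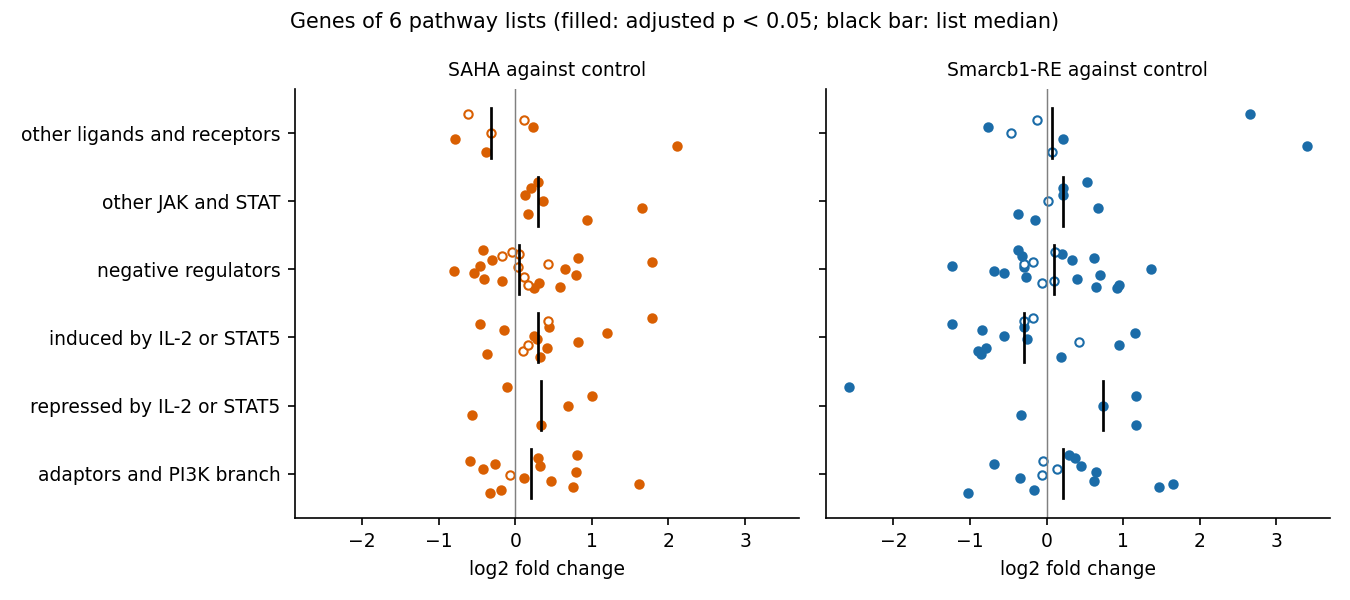
Log2 fold changes of the tested genes of 6 pathway lists in SAHA (left) and Smarcb1-RE (right) against control, with a point per gene, filled where the adjusted p was under 0.05, and a black bar at each list's median. Genes known to be induced by IL-2 or STAT5 have a median of 0.30 in SAHA and -0.30 in Smarcb1-RE, against 0 and 0.01 over all genes.

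As a description, the genes whose log2 CPM was most alike over the 9 libraries were sought among 11319 genes for the called member with the largest change in each comparison with control. Genes whose average log2 CPM was under 1, Il2ra among them, were left out. For Il2rb (SAHA) these were Rhpn2, Apaf1 and Fbrs (Pearson's r of 0.998, 0.997 and 0.996), and for Il7r (Smarcb1-RE) Ube2v1, S1pr1 and Nipa2 (0.999 each). The libraries fall into 3 groups, and the correlations run mostly over the 3 group means. S1pr1, a receptor for lymphocyte exit from lymphoid tissue, measured 202 ± 5.84 CPM in control, 275 ± 4.09 in SAHA and 39.7 ± 1.39 in Smarcb1-RE.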

How the data were processed

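Total RNA of T15 cells was sequenced after preparation with a directional library kit, as single-end reads. The authors deposited 1 table of estimated counts per Ensembl gene without normalization (52.4% of values above 0 were not whole numbers within a tolerance of 1e-09). The submitters' processing notes name FastQC 0.11.8, MultiQC 1.7, Salmon 0.14.1, DESeq2 1.22.2 and the build GRCm38. Estimated counts divide reads shared by similar genes, so such genes are uncertain. Identifiers were matched to GENCODE M21 (99.5% of 35288).

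Counts were rounded, filtered with filterByExpr (minimum count 10), normalized by TMM and fitted in 1 model of the 3 groups with edgeR 4.0.16 in R 4.3.3 (quasi-likelihood test, Benjamini-Hochberg adjustment over 13697 genes, called at an adjusted p under 0.05). The common biological coefficient of variation was 5.24%. The calculation was tested on simulated data. Alternatives were DESeq2 1.42.0, median-ratio factors, library totals, other filters, a replicate block, separate fits per pair of groups, stricter calls and leaving out each library. Levels between genes were compared as CPM per kb of merged exons. Shared sequence was counted as 31-base stretches of annotated transcripts.

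The members and lists were chosen with earlier results of these data known, the lists from general knowledge. Named genes are the members, Smarcb1 and, per list and comparison with control, the 3 called genes (or fewer) that differed most on the log2 scale, with average log2 CPM at or above 1 and no overlap between groups. For the called member with the largest change in each comparison with control (with the same minimum level), the 3 genes most alike by Pearson's correlation are also named. Some genes that the rule names are not reported here.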

Additional observations from a re-analysis of the deposited data

How the results depend on the processing

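The members' log2 fold changes were recomputed under every alternative except the minimum fold change, which gave 459 values. Of these, 434 kept their direction and their side of the threshold and 9 changed sign. Of those that kept their sign, 8 gained a call and 8 lost it, the latter all Jak1 in Smarcb1-RE against SAHA. Il2ra, Il2rb, Il2rg, Il7r, Jak3 and Stat5a kept their direction against control under every setting in which they were tested, and their call under all but the minimum fold change. A minimum absolute log2 fold change of 1 left 1 member higher and 0 lower in SAHA, 1 higher and 2 lower in Smarcb1-RE, and 0 higher and 1 lower in Smarcb1-RE against SAHA. Among pathway genes it left 5 higher and 0 lower in SAHA, 8 and 3 in Smarcb1-RE, and 2 and 5 between the treated groups. The single member higher in Smarcb1-RE than in SAHA became 5 with library totals (and 29 pathway genes in place of 18), 2 with separate fits, and 0 without a filter or at an adjusted p under 0.01, with a range of 0 to 1 when libraries were left out. The sign changes were as follows. At 10 counts in every library, Il21r was 0.02 and Jak1 0.01 in SAHA, and Il2rg 0.01 between the treated groups. With library totals, Il21r lost its calls in Smarcb1-RE (from -0.16 to 0) and between the treated groups (from -0.15 to 0.01), where Il2rg gained one (from -0.01 to 0.15). Leaving out a library gave -0.04 to 0 for Il21r (0 without SAHA replicate 2) and -0.06 to 0 for Jak1 (0 without control replicate 2) in SAHA, and -0.01 to 0.03 for Jak3 (-0.01 without SAHA replicate 1) between the treated groups. The cause was not tested. Stat5b passed in SAHA at 10 counts in every library (0.13) and without control replicate 2 (0.14).

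Same-numbered libraries deviated together no more than others (r from -0.121 to 0.119, against -0.147 to 0.139). These values show no pairing by number, but they cannot exclude that libraries were prepared in matched sets. With the replicate block, 5 members were higher and 1 lower in SAHA, as without it, and no member's call changed. Il2ra, with 12 to 50 counts, is the least precise member, and Il2 could not be tested. The 3 libraries per group come from 1 cell line, and protein and STAT5 phosphorylation were not measured.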
